A study of Mus musculus with 32 samples.

Results

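The keratin-associated proteins of the hair shaft were followed through 32 primary mouse melanomas. All 58 genes whose GENCODE symbol starts with Krtap were taken, of 50600 genes in the tables, and 57 of them are protein coding. RNA was sequenced as stranded polyadenylated libraries from 8 tumours for each genotype and sex, on a C57BL/6J background. All mice carried an NRAS oncogene driven in melanocytes by the tyrosinase promoter and 1 functional copy of Cdkn2a, a tumour suppressor gene, together with 2 floxed alleles of Cdh1, which encodes E-cadherin. The Ecad groups are labelled Tyr::NrasQ61K;Cdkn2a-/+;°/°;Cdh1F/F and hold no Cre. The ΔEcad groups are labelled Tyr::NrasQ61K;Cdkn2a-/+;Tyr::NRAS/°;Cdh1F/F, where the methods of the study give Tyr::CreA, a Cre recombinase under the same melanocyte promoter. The Cre is thus driven in melanocytes, and Cdh1 in the other cells of the tumour was not measured apart. The ages of the mice are not given in the sources used here.

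Hair is made in the follicle during its growth phase, when matrix cells around the dermal papilla divide, move upwards and differentiate into the cortex and cuticle of the shaft. These cells fill with hair keratins, the trichocyte keratins, and then with keratin-associated proteins, which embed and cross-link the keratin filaments. The high glycine-tyrosine proteins are short and rich in those residues, whereas the high sulphur and ultra-high sulphur proteins are rich in cysteine and form disulphide bonds. Melanocytes do not build the shaft but sit in the same follicle and pass pigment to it, and the skin around a melanoma holds follicles.

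The genes lie in 5 clusters of GRCm38 (positions from GENCODE M21). Chromosome 16 holds 25 members between 88610705 and 89571183, among them all 15 high glycine-tyrosine genes and 9 high sulphur genes. Chromosome 11 holds 23 members between 99550130 and 99993994, of which 11 are high sulphur and 12 ultra-high sulphur genes. The other 5 ultra-high sulphur genes lie on chromosome 7, with 3 high sulphur genes on chromosome 10 and 2 on chromosome 1. Classes were set by family number, as 15 high glycine-tyrosine, 25 high sulphur and 17 ultra-high sulphur genes, and the pseudogene Krtap19-9a was left unclassed. In the translated coding sequences, glycine plus tyrosine made up 29.9 to 69.2% of the high glycine-tyrosine proteins (median 63.3%), and cysteine made up 27.2 to 41.5% of the ultra-high sulphur proteins (median 37.7%). Cysteine in the high sulphur class ranged more widely, from 4.00 to 42.9% (median 20.2%). The family number and the composition do not always go together, as Krtap16-3, placed in the high sulphur class, held 59.3% glycine plus tyrosine.

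A TATA box core was frequent just upstream of the genes. RefSeq promoters of GRCm38.p6, from 250 bases before to 50 bases after the start, were matched by symbol for 51 of the 58 members, and the RefSeq start lay within 50 bases of the GENCODE start for 46 of the 51. The motif TATAAA, the core of the TATA box, started 40 to 20 bases before the start on the gene's strand in 31 of 51 members (60.8%), against 1.99% of all 32851 promoters. By class these were 6 of 14 high glycine-tyrosine, 13 of 21 high sulphur and 12 of 16 ultra-high sulphur genes, and by cluster 17 of 21 genes on chromosome 11, 10 of 23 on chromosome 16, 3 of 5 on chromosome 7, 1 of 1 on chromosome 1 and 0 of 1 on chromosome 10. The 60 bases before the start are shown for the 3 members with the highest mean TPM among those matched in each class, all on the minus strand, written 5′ to 3′ on the gene's strand with TATAAA in capitals. Krtap7-1 was not matched. Krtap19-5 lacks the motif in these bases, and its nearest TATAAA started 63 bases before the start.
Krtap8-1, chr16:89487953-89488012: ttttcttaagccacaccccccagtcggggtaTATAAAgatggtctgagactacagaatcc
Krtap22-2, chr16:89010760-89010819: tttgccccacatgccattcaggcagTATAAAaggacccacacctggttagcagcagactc
Krtap19-5, chr16:88896450-88896509: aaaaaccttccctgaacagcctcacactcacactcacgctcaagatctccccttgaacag
Krtap11-1, chr16:89571184-89571243: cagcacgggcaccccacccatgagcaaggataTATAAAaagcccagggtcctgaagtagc
Krtap3-2, chr11:99556854-99556913: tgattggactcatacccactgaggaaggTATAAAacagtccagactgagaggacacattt
Krtap3-1, chr11:99566631-99566690: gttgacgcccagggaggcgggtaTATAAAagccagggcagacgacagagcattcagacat
Krtap17-1, chr11:99993995-99994054: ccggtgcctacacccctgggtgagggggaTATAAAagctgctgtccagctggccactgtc
Krtap4-7, chr11:99644090-99644149: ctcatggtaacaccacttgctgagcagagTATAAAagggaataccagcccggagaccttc
Krtap9-3, chr11:99598107-99598166: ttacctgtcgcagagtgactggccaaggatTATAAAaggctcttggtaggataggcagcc

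In the 8 of these 9 sequences that hold it, TATAAA started between 28 and 37 bases before the start. On either strand and anywhere in the 300 bases, TATAAA was found in 42 of 51 members (82.4%), against 13.6% of all promoters. The motifs CTTTGA and CTTTGT, core letters bound by the Wnt effectors LEF1 and TCF, were searched on both strands without regard to overlap with other motifs. Each was found in 15 of 51 members (29.4%), against 5257 and 6147 of the 32851 promoters (18.7% for the latter). CTTTGA was present in 4 of 14 high glycine-tyrosine, 10 of 21 high sulphur and 1 of 16 ultra-high sulphur promoters. CTTTGT was present in 8 of 14 high glycine-tyrosine, 5 of 21 high sulphur and 2 of 16 ultra-high sulphur promoters. A match to these letters is a description of the sequence and not a binding site.

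Libraries held 24036333 to 63923086 counts. Cdh1 was measured first, as the targeted gene. Levels are given as TPM, an abundance scaled for gene length and library total. Among males, Cdh1 spanned 25 to 281.9 TPM in Ecad and 0.79 to 65.2 TPM in ΔEcad tumours, and among females 2.16 to 151.2 TPM and 0.17 to 143.3 TPM (n = 8 per group). The level in females therefore does not separate the genotypes as labelled (edgeR adjusted p = 0.999 in females and 0.365 in males). Keratinocytes express Cdh1 too, and their part in these levels was not tested. Sex genes were unusual in 2 libraries. The library labelled ΔEcad male 2 had Xist, the RNA of the inactive X chromosome, at 6.41 TPM (0.20 TPM or less in the remaining males) and no count of Y-linked genes, which goes against its label. The library labelled ΔEcad female 1 had Xist at 101.2 TPM, within the range of the other females (8.55 to 253.2 TPM), but 92 counts of Y-linked genes, against at most 4 in the other females and 1459 to 8800 in the other males. Both held Krtap transcripts, and the counts of tumours, group levels, class shares and calls are also given without both.

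Krtap transcripts were present in some tumours and nearly absent in others. The summed level of the 58 genes was at least 10 TPM in 14 of 32 tumours, comprising 6 of 8 Ecad males, 0 of 8 Ecad females, 4 of 8 ΔEcad males and 4 of 8 ΔEcad females. No tumour lay between 3.32 and 19.8 TPM, and 10 tumours had no Krtap count at all. With a minimum of 1 TPM the numbers were 6, 2, 5 and 4 in the same order, and with 100 TPM they were 1, 0, 1 and 4. Without both libraries with unusual sex genes, 3 of 7 ΔEcad males and 3 of 7 ΔEcad females had at least 10 TPM. In these bulk samples, fewer shaft-forming cells and less RNA per cell cannot be told apart.

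In Ecad males the 6 tumours were male 1 (29.2 TPM), male 2 (37.3), male 4 (39.4), male 5 (19.8), male 6 (149.4) and male 8 (38.4), with male 3 at 0.85 and male 7 at 0 TPM. In ΔEcad males they were male 1 (107.3 TPM), male 2 (65.5), male 3 (65.7) and male 5 (21.2), with male 4 at 3.32 and the other 3 at 0 TPM. In ΔEcad females they were female 1 (106.8 TPM), female 2 (635.3), female 6 (133.4) and female 7 (244.0), with female 8 at 0.30, female 5 at 0.12 and the remaining 2 at 0 TPM. Each of these 3 groups thus held both tumours rich in Krtap transcripts and tumours at or near 0. In Ecad females the highest sum was 2.71 TPM, in female 3, and 4 tumours were at 0. Of the 51 Krtap counts in Ecad female 3, Krtap3-2 had 28 and Krtap3-3 had 19.

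Group means followed a few tumours. Summed Krtap levels were 39.3 ± 47.3 TPM in Ecad males (median 33.2), 0.68 ± 1.02 TPM in Ecad females (median 0.17), 32.9 ± 41.3 TPM in ΔEcad males (median 12.2) and 140.0 ± 218.9 TPM in ΔEcad females (median 53.5; SD, n = 8 each). Without both libraries with unusual sex genes, the values were 28.2 ± 42.3 TPM in ΔEcad males (median 3.32) and 144.7 ± 236.0 TPM in ΔEcad females (median 0.30; SD, n = 7 each). The SD exceeded the mean in every group, and the groups overlapped near 0. In the 14 tumours, 38 to 57 of the 58 members were above 0, and 22 members were above 0 in all 14. ΔEcad female 2 had the highest level of 49 members.

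**Figure D1:**
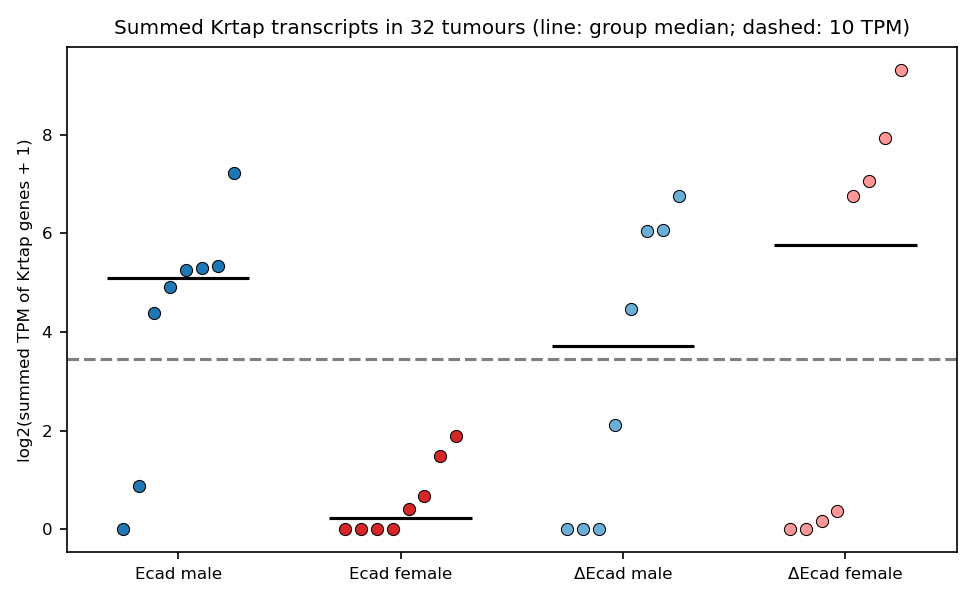
Summed TPM of the 58 Krtap genes on a log2(TPM + 1) axis, 1 point per tumour in 4 groups of 8, with solid lines at group medians and a dashed line at 10 TPM. Tumours at 19.8 TPM or more stand apart from those at 3.32 TPM or less, and none of the former is an Ecad female.

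Other hair and skin genes were measured in the same tumours. For each list of marker genes the TPM of its members were summed. The 14 tumours were also the 14 highest for trichocyte keratins (15 genes, led by Krt35, Krt87 and Krt31), at 6.34 to 132.0 TPM against at most 2.32 TPM in the other 18. Krt85 was also listed but was not found by symbol, so it is not in this sum. The 2.32 TPM were in Ecad male 3, where Krt87 alone was at 2.28 TPM. They were also the 14 highest for the inner root sheath, the layer that moulds the growing shaft (9 genes, led by Krt71, Krt25 and Krt27), at 29.4 to 4383 TPM against at most 8.03 TPM. Of these 14 tumours, 12 were among the 14 highest for regulators of the hair matrix and cortex and for shaft enzymes such as Padi3 and Tgm3, and 13 for the outer root sheath, led by Krt79 and Krt15. The overlap was also 12 of 14 for the interfollicular epidermis and for the sebaceous gland. For the dermal papilla list, led by Sox2 and Wif1, 7 of the 14 were among the highest. Sox2 and other genes of that list are also expressed outside the papilla. For the remaining lists the overlap was 10 of 14 for macrophage, 9 for skeletal muscle, 8 for endothelial, 6 for fibroblast and 6 for melanocytic genes.

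Epidermal and Krtap levels nevertheless differed in proportion. Genes of the interfollicular epidermis (13 genes, led by Krt14, Krt10 and Krt5) summed to 409 to 47081 TPM in the 14 tumours and to at most 6251 TPM in the others. The 6251 TPM were in ΔEcad female 8, which had 0.30 TPM of Krtap transcripts. The sum in that tumour came mainly from Krt14 (3444 TPM) and Krt5 (1808 TPM). Krt10 was at 181.8, Krt1 at 75.9, Lor at 1.16 and Ivl at 0.21 TPM there. Ecad female 5 (1847 TPM) and Ecad male 3 (1716 TPM) also held epidermal transcripts, with 1.80 and 0.85 TPM of Krtap. Krt14 gave 1141 TPM of the sum in Ecad female 5, whereas Ecad male 3 had Krt10 at 509.7 and Lor at 155.6 TPM. Conversely, Ecad male 8 had 38.4 TPM of Krtap transcripts with 409 TPM of epidermal genes. Per 1000 TPM of epidermal genes, this was 93.7 TPM of Krtap in Ecad male 8 and 1.17 TPM in Ecad male 5. The part of skin content in the differences between groups was not tested apart from the fit with an epidermis score given with the comparisons.

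Within the 14 tumours the Krtap sum was set beside each list. On the log2(TPM + 1) scale, its correlation with trichocyte keratins had a Pearson's r of 0.94 and a Spearman's rho of 0.90, and r was 0.88 without the 2 tumours farthest from the median. With the inner root sheath r was 0.88 (rho 0.77), and 0.72 without the 2 tumours. With the shaft enzymes r was 0.84 (rho 0.85), and 0.75 without the 2 tumours. The sebaceous gland came next (r 0.68, rho 0.59, and 0.38 without the 2 tumours). Lower values were those of the matrix and cortex regulators (r 0.59, rho 0.50, and 0.29), the outer root sheath (r 0.46, rho 0.50, and 0.17) and the interfollicular epidermis (r 0.43, rho 0.42, and 0.20). The dermal papilla had r 0.31 (rho 0.31, and 0.19) and skeletal muscle r 0.18 (rho 0.20, and −0.28). For fibroblast, endothelial and macrophage genes r was 0.06, −0.01 and −0.14, and −0.15, −0.13 and −0.41 without the 2 tumours. Melanocytic genes had r −0.60 (rho −0.27), and 0.09 without the 2 tumours. These are descriptions over 14 tumours chosen by the Krtap sum, and each pair of values shares a library and its depth. Krtap transcripts amounted to 1.89 to 4.34 TPM per TPM of trichocyte keratin (without Krt85) in the 6 Ecad males, 3.34 to 4.87 in the 4 ΔEcad males and 3.42 to 4.81 in the 4 ΔEcad females, so the ranges overlapped. Without both libraries with unusual sex genes, the ΔEcad males spanned 3.34 to 4.00 and the ΔEcad females 3.42 to 4.81.

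**Figure D2:**
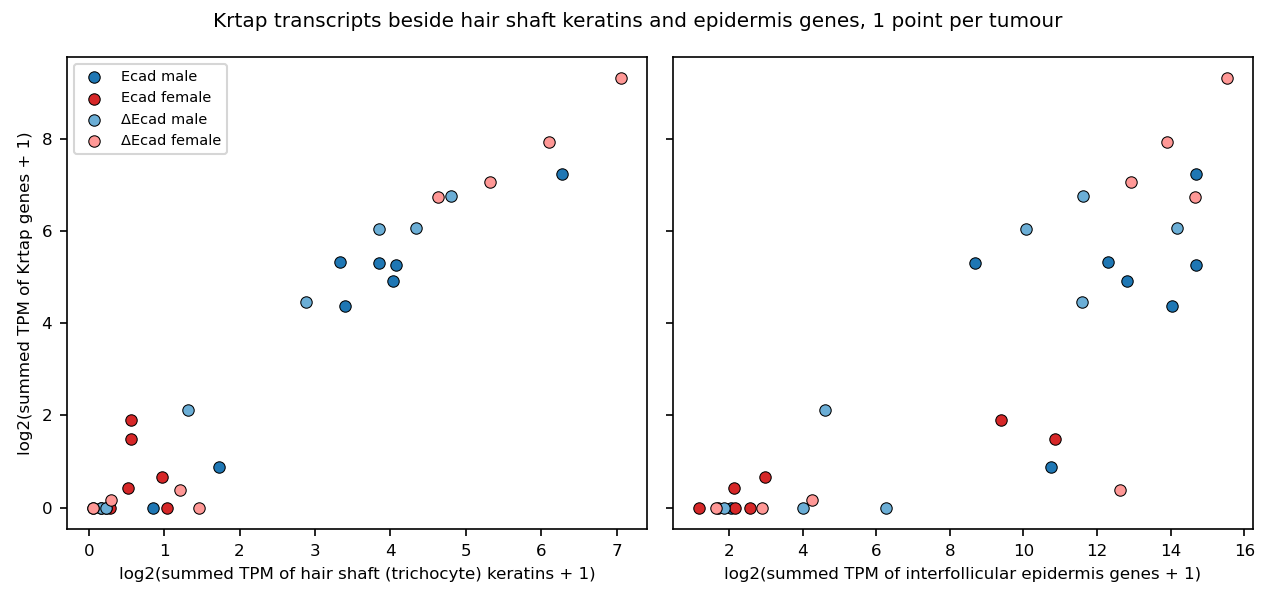
Summed Krtap TPM (vertical) against the summed TPM of trichocyte keratins (left) and of interfollicular epidermis genes (right), all as log2(TPM + 1), with 1 point per tumour coloured by group. The 14 tumours with at least 10 TPM of Krtap are the 14 highest for trichocyte keratins. ΔEcad female 8, with 6251 TPM of epidermal genes that are mainly Krt14 and Krt5, lies near 0 for Krtap.

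Among classes, the high glycine-tyrosine genes contributed 47.1% of the mean Krtap TPM over all tumours, the ultra-high sulphur genes 15.1% and the pseudogene 2.82%, with the rest from the high sulphur genes. Tumours with high sums weigh most in this mean, above all ΔEcad female 2 (635.3 TPM). Krtap7-1 and Krtap8-1 were the most abundant members. Of the 58 genes, 24 share a stretch of at least 100 bases with another gene, among them Krtap3-2 and Krtap3-3, so their split of reads is uncertain. Some of these stretches are shared with genes of other names, such as Gm10228 with Krtap6-1 and Gm11559 with Krtap9-1. The symbol rule leaves those genes out, so class shares and cluster counts describe the 58 genes only. Krtap13 had no count in any tumour.

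**Figure D3:**
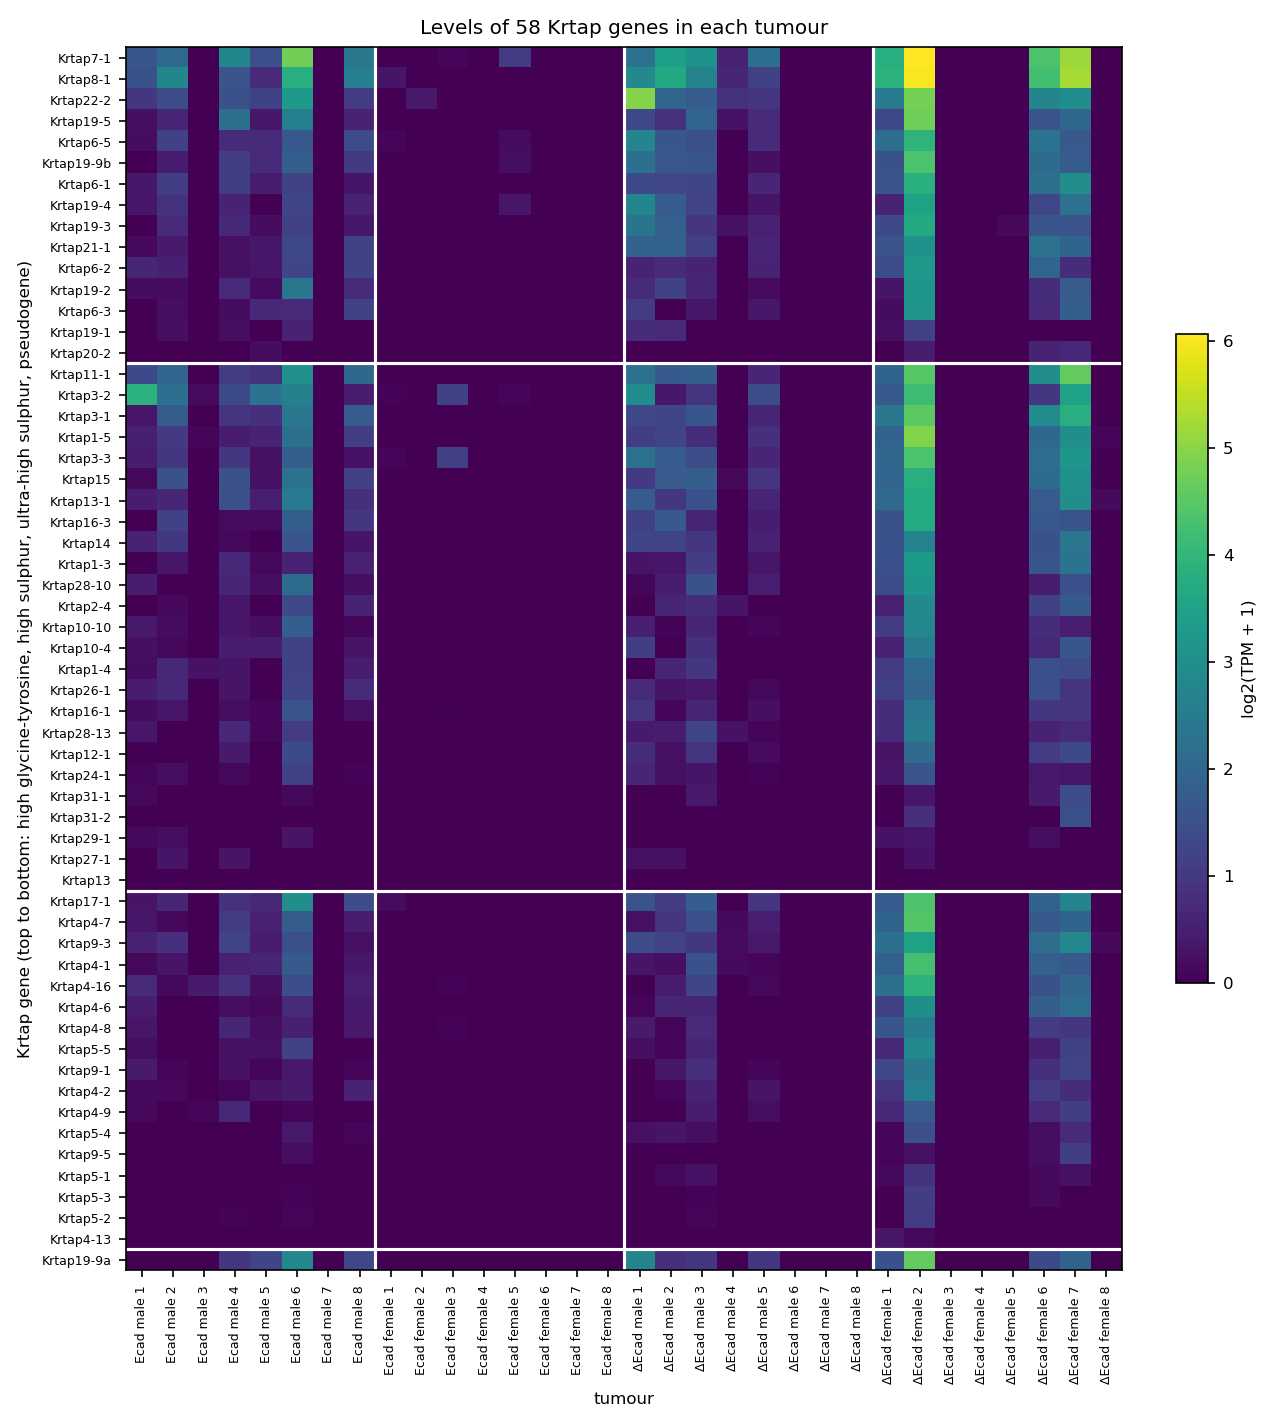
TPM of each Krtap gene (rows, grouped by class) in each of the 32 tumours (columns, grouped by genotype and sex), coloured by log2(TPM + 1). The 14 tumours with at least 10 TPM show members of all 3 classes, and the other 18 columns are near 0.

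Among the high glycine-tyrosine genes, Krtap7-1 (ENSMUSG00000056706) had a median of 2.65 TPM and a highest value of 25.96 TPM in Ecad males, a median of 0 and a highest of 1.11 TPM in Ecad females, a median of 2.07 and a highest of 9.73 TPM in ΔEcad males, and a median of 6.58 and a highest of 66.09 TPM in ΔEcad females. Krtap8-1 (ENSMUSG00000059632), the single member of its family here, had medians of 1.97, 0, 0.925 and 6.98 TPM in the same order, with highest values of 13.01, 0.26, 11.89 and 63.41 TPM. In each group the lowest tumour was at 0 for both genes, so all groups overlapped. Krtap22-2 (ENSMUSG00000095992) departed from the other members in 1 tumour. It reached 29.96 TPM in ΔEcad male 1, 27.9% of all Krtap TPM there, against a median share of 4.30% in the 14 tumours. The median of the ΔEcad males was 0.865 TPM and their mean 4.63 TPM. Krtap6-5 was likewise highest among ΔEcad males in male 1, at 5.79 TPM. Krtap19-5 had 175 of its 313 counts (55.9%) in 1 tumour, ΔEcad female 2.

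Among the high sulphur genes, Krtap11-1 (ENSMUSG00000091212) had the highest mean level, with highest values of 7.30 TPM in Ecad males, 0 in Ecad females, 3.86 TPM in ΔEcad males and 23.25 TPM in ΔEcad females, the last in female 7. Krtap3-2 (ENSMUSG00000069721) followed another order of tumours. It was at 13.6 TPM in Ecad male 1, 46.5% of the Krtap TPM of that tumour, against a median share of 3.80%, and at 16.81 TPM in ΔEcad female 2. Its neighbour Krtap3-1 (ENSMUSG00000047564), which shares no 100-base stretch with another gene, was at 0.30 TPM in Ecad male 1 and at 22.22 TPM in ΔEcad female 2. Krtap1-5 was at 29.06 TPM in ΔEcad female 2 and at most 7.13 TPM in every other tumour. Krtap3-3 was at 19.39 TPM in ΔEcad female 2 and at 1.22 TPM in Ecad female 3.

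Among the ultra-high sulphur genes, levels were lower. Krtap17-1 (ENSMUSG00000078252), a protein of the shaft cortex, had medians of 0.595, 0, 0.435 and 1.20 TPM in Ecad males, Ecad females, ΔEcad males and ΔEcad females, with highest values of 6.98, 0.13, 2.51 and 19.6 TPM. Krtap4-7 (ENSMUSG00000045109) had highest values of 2.44, 0, 1.77 and 20.78 TPM in the same order, and Krtap9-3 had 1.80, 0, 1.65 and 10.39 TPM. The highest tumour of ΔEcad females was female 2 for each of these and for Krtap4-1 (18.26 TPM) and Krtap4-16 (14.29 TPM). Without it, the mean of Krtap4-7 in ΔEcad females was 1.15 instead of 3.60 TPM.

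The balance of classes varied between tumours. The high glycine-tyrosine share of the classed Krtap TPM, with classes by family number, had a median of 47.7% over the 14 tumours (SD 10.4). It ran from 23.0% in Ecad male 1, where Krtap3-2 was high, to 67.3% in ΔEcad male 1, where Krtap22-2 was high. With classes set by protein composition instead, the share was lower in each of the 14 tumours. By family number, group medians were 47.1% over 6 Ecad males, 57.2% over 4 ΔEcad males and 45.8% over 4 ΔEcad females, and the ranges overlapped. As a share of counts, which is not scaled for length, it ran from 14.6% (95% exact binomial interval 10.7 to 19.2%) to 53.7% (49.8 to 57.6%), the latter in ΔEcad male 2. The ultra-high sulphur share of counts ran from 5.97% in Ecad male 2 (3.64 to 9.17%) to 26.6% in ΔEcad female 1 (23.9 to 29.4%). Without both libraries with unusual sex genes, the highest shares of counts were 50.9% for high glycine-tyrosine genes, in ΔEcad male 1, and 24.5% for ultra-high sulphur genes, in ΔEcad female 2, and the group medians of the TPM share were 50.4% and 46.6% over 3 ΔEcad males and 3 ΔEcad females. These intervals cover counting error only. Over the 14 tumours the class sums rose and fell in the same tumours, with r of 0.91 between high glycine-tyrosine and high sulphur genes and 0.88 between high glycine-tyrosine and ultra-high sulphur genes (log2(TPM + 1); 0.82 and 0.75 without the 2 farthest tumours).

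**Figure D4:**
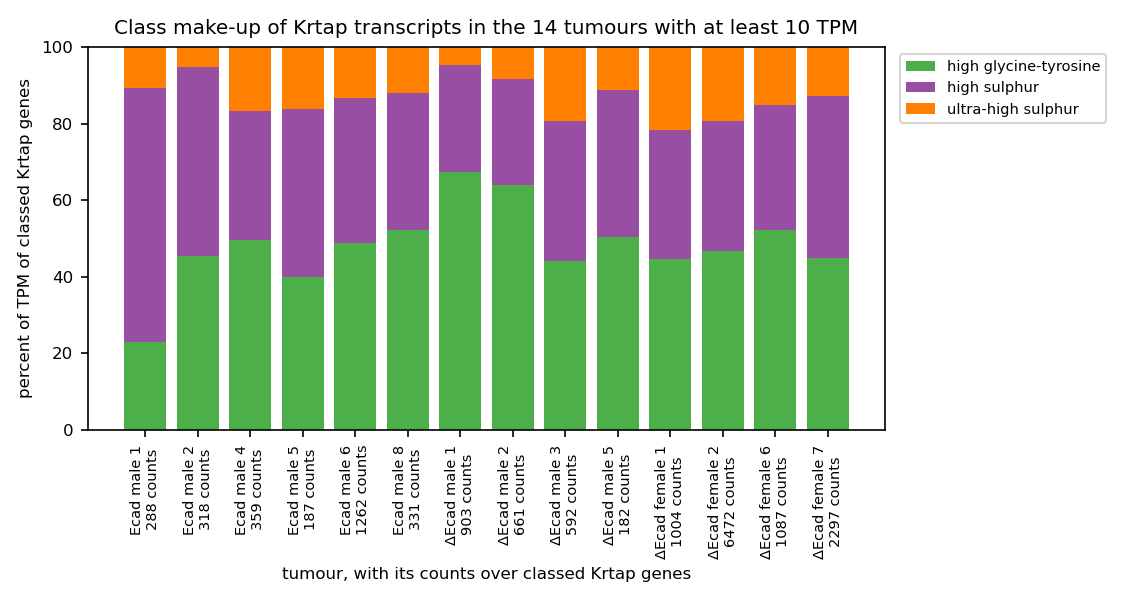
Stacked bars of the share (percent) of the classed Krtap TPM from high glycine-tyrosine, high sulphur and ultra-high sulphur genes in each of the 14 tumours with at least 10 TPM. The high glycine-tyrosine part ranges from 23.0% in Ecad male 1 to 67.3% in ΔEcad male 1.

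The design asks whether loss of Cdh1 changes expression in each sex. Of the 58 members, 17 had enough counts to be tested (6 high glycine-tyrosine, 8 high sulphur and 3 ultra-high sulphur), and a member could pass only through the tumours in which it was high. In females, 11 members were called higher in ΔEcad than in Ecad tumours, against 1.16% of all genes tested that were called higher (edgeR, Benjamini-Hochberg adjusted p under 0.05 and a log2 fold change over 1 in size). These were Krtap6-5, Krtap8-1 and Krtap19-9b of the high glycine-tyrosine class, Krtap1-5, Krtap3-1, Krtap11-1, Krtap13-1 and Krtap15 of the high sulphur class, and Krtap4-7, Krtap9-3 and Krtap17-1 of the ultra-high sulphur class. None was called lower. All 17 were higher at an unadjusted p under 0.05, against 11.2% of all genes. The comparison sets 4 tumours with Krtap transcripts and 4 nearly without against 8 nearly without, and all members tested overlapped between the groups.

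Krtap8-1 was higher by 8.22 on the log2 scale (SE 1.88, edgeR adjusted p = 0.0394), with 1006 counts in ΔEcad females and 3 in Ecad females, a ratio of 361 with a counting interval from 123 to 1753. Krtap1-5 had 594 counts against 0 and was at least 213-fold higher, taking 3 counts over the group as the limit of a count of 0 (edgeR adjusted p = 0.0394). Krtap4-7 and Krtap9-3 also had 0 counts in Ecad females and were at least 138-fold and 84.3-fold higher (edgeR adjusted p = 0.0394 for both). Krtap3-1 was at least 132-fold higher (edgeR adjusted p = 0.0403). Krtap7-1, the most abundant member, had 1093 counts against 9 and missed the threshold (edgeR adjusted p = 0.0518), as did Krtap3-2 (adjusted p = 0.189) and Krtap3-3 (adjusted p = 0.128), which had counts in Ecad female 3. Such ratios, limits and counting intervals, here and below, pool the reads of each group. They cover counting error only and not the spread between tumours, so they do not bound the difference between groups. ΔEcad female 2 held much of the Krtap counts in ΔEcad females, 426 of 594 for Krtap1-5 and 288 of 385 for Krtap4-7. Without it the limits were at least 68.3-fold for Krtap1-5, 39.4-fold for Krtap4-7, 50.4-fold for Krtap9-3 and 72.8-fold for Krtap3-1, and the ratio for Krtap8-1 was 199 (67.6 to 968).

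These calls depended on the tool and on single tumours. DESeq2 called 42 of 50 members higher, against 5.86% of all genes it tested, and its calls included all 11, whereas limma called 0 on voom weights and 0 on log2(TPM + 1). Over all genes, each limma fit called 1 gene higher. With the interfollicular epidermis score as a covariate, 0 members were called, against 0.0282% of all genes called higher. In that fit 9 of the 17 members were higher at an unadjusted p under 0.05, against 5.09% of all genes, and Krtap8-1 was at 2.11 and Krtap1-5 at 4.16 on the log2 scale. The count was also 0 without ΔEcad female 1, 2 or 7, and without any 1 of 7 Ecad females (all but female 5). It was 0 as well without both libraries with unusual sex genes, when 14 members were tested. In the main fit the 11 members had an edgeR adjusted p from 0.0394 to 0.0497, close to the threshold. Calls over all genes with tumours left out are not given here. A count of 0 there is therefore not a result about the Krtap genes alone.

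In males, 0 of 17 members were called, as were 0.00% of all genes in the direction of higher in ΔEcad. At an unadjusted p under 0.05, 0 members were higher, against 7.19% of all genes, and DESeq2 called 0 members, against 0.0699% of genes. The smallest p was that of Krtap22-2, higher by 2.23 on the log2 scale (SE 1.30, edgeR adjusted p = 0.544), and without ΔEcad male 1 the difference was −0.65. Krtap21-1 (1.53, SE 1.30) and Krtap6-5 (1.40, SE 1.20) followed, both with an edgeR adjusted p of 0.684. Summed Krtap levels in both male groups spanned 0 to over 100 TPM.

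Females were next compared with males within each genotype. In Ecad tumours, 0 members were called, against 0.0395% of genes called lower in females, although 16 of the 17 were lower at an unadjusted p under 0.05, against 10.3% of all genes. DESeq2 called 16 of 48 members lower, against 4.47% of genes. Krtap11-1 had 0 counts in Ecad females and 200 in Ecad males, at least 79.7-fold more (edgeR adjusted p = 0.108). Krtap15 had 0 against 114 counts, at least 45.4-fold (edgeR adjusted p = 0.109), but overlaps Krtap14 on the other strand. Krtap8-1 had 3 against 196 counts, a ratio of 78.1 with a counting interval from 26.3 to 382 (edgeR adjusted p = 0.109).

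In ΔEcad tumours, 0 members were called between the sexes, against 0.00564% of genes called higher in females. Krtap4-7 (2.84 on the log2 scale, SE 1.35, edgeR adjusted p = 0.563) and Krtap1-5 (2.89, SE 1.38, edgeR adjusted p = 0.564) were the 2 members with an unadjusted p under 0.05, against 3.32% of genes. DESeq2 called 0 members, against 0.0839% of genes. Krtap3-1 came next (2.66, SE 1.35, edgeR adjusted p = 0.575). Both libraries with unusual sex genes belong to this comparison, and without them 0 members were called in any of the 5 comparisons. Calls over all genes without them are not given here.

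The interaction of genotype and sex tests whether the difference between genotypes itself differs between females and males. No member passed, and 0.00% of genes were called higher. At an unadjusted p under 0.05, 16 members were positive, against 10.7% of genes, and DESeq2 called 20 of 48 members, against 5.55% of genes. The smallest p belonged to Krtap1-5 (9.43 on the log2 scale, SE 2.36, edgeR adjusted p = 0.0526), Krtap3-1 (9.03, SE 2.33, edgeR adjusted p = 0.0546) and Krtap4-7 (8.74, SE 2.30, edgeR adjusted p = 0.0581). The 5 comparisons share groups and are not independent of each other. The higher level in ΔEcad than in Ecad tumours was thus called in females, not called in males, and the difference between the sexes was not called.

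**Figure D5:**
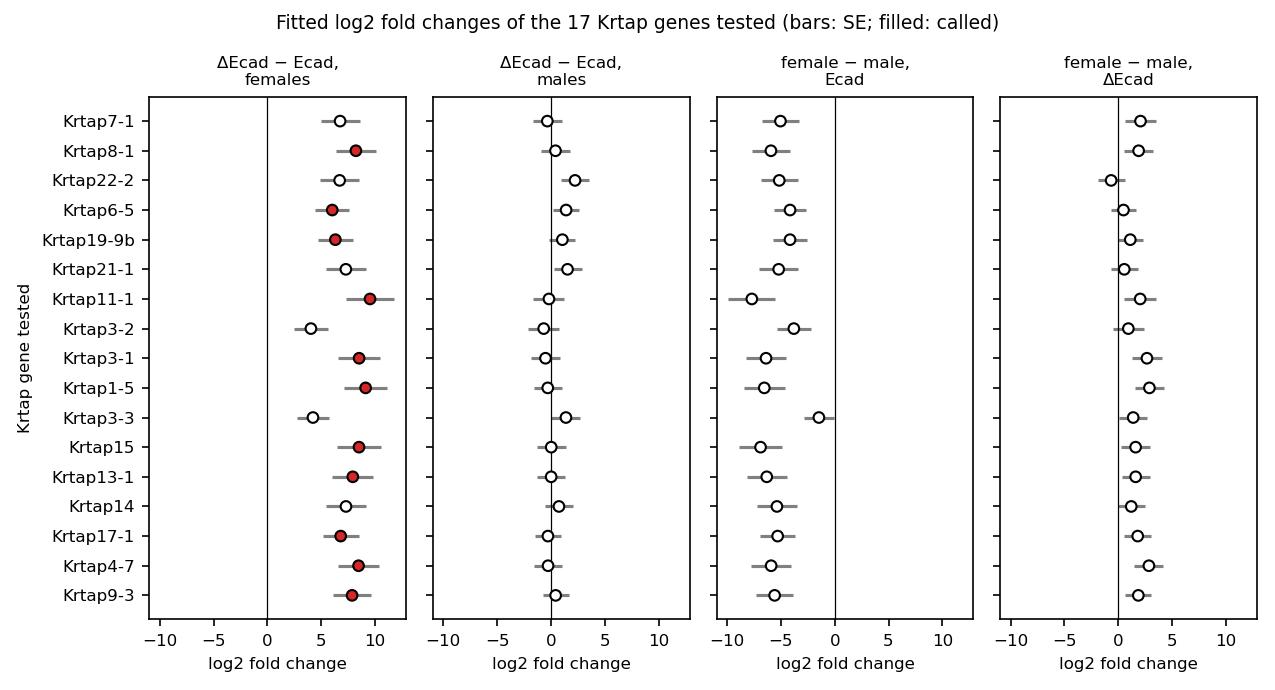
Fitted log2 fold changes (edgeR) of the 17 members tested, in 4 panels for genotype within each sex and sex within each genotype, with bars of 1 SE either side and filled points for the 11 called. Between genotypes, values in females run from 4.04 to 9.53 and those in males from −0.68 to 2.23, and where a group has no counts the fitted value depends on the prior count and is no bound.

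Other hair and skin lists were read from the same fit in females, in which 1.16% of all genes were called higher. Of 11 trichocyte keratins tested, 5 were called higher in ΔEcad females, among them Krt35 (9.30 on the log2 scale, SE 2.16, edgeR adjusted p = 0.0394), and 7 of 8 inner root sheath genes were called, among them Krt27 (11.14, SE 2.41, edgeR adjusted p = 0.0394). Of 8 regulators tested, 4 were called higher, namely Hoxc13, a homeobox factor that activates hair keratin genes, Dlx3, Msx2 and Gata3 (edgeR adjusted p = 0.0394 each). Foxn1 (adjusted p = 0.0572), Foxq1 (adjusted p = 0.0552), Ovol1 (adjusted p = 0.159) and Lef1 (adjusted p = 0.835) did not pass, and Shh was not tested. Padi3 and S100a3 of the shaft enzymes and 2 of 7 outer root sheath genes were called. None of 13 epidermal, 5 sebaceous, 3 dermal papilla and 7 melanocytic genes was called, though 12 of the 13 epidermal, 5 of 5 sebaceous and 2 of 3 dermal papilla genes were higher at an unadjusted p under 0.05, against 11.2% of all genes. No gene of these lists was called in the other 4 comparisons by edgeR. As for the Krtap genes, the counts of trichocyte keratins, inner root sheath genes, regulators and shaft enzymes called in females were 0 with the epidermis score as a covariate. They were also 0 without both libraries with unusual sex genes, where calls over all genes are not given here.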

How the data were processed

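RNA of 32 tumours was sequenced. The authors mapped reads with STAR to GRCm38 and deposited raw counts per gene and TPM per gene. The deposited counts were whole numbers, and TPM was proportional to them, gene by gene, within 0.0683%. Groups came from the labels. The Krtap genes, marker lists and rules were chosen with earlier results of these data known. GENCODE M21 symbols named 50376 of 50600 genes.

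Counts were tested with edgeR 4.0.16 (two-sided quasi-likelihood, robust, TMM, filterByExpr by group) in 1 model of 32 tumours, on 17717 genes, with Benjamini-Hochberg adjustment over all of them. The SE was derived from the test statistic. P-values cover the spread between tumours, and no source used here says whether any shared a mouse. Classes were set by family number (high glycine-tyrosine 6, 7, 8 and 19 to 22, ultra-high sulphur 4, 5, 9 and 17), since no RefSeq protein table was used here. Named were the 5 members of each class with the highest mean TPM. In each comparison the 5 called members with the smallest p were named, or 3 where none was called. Up to 3 leading genes of each hair list and of the epidermis list were named, with all matrix regulators and Cdh1. Genes of the other lists were not named. Alternatives were DESeq2 1.42.0, limma 3.58.1, other size factors and filters, a block, a covariate and each tumour left out. The fit was also run on simulated counts in which changed genes shifted alike in every ΔEcad female. The Krtap genes were high in only some ΔEcad females, a case that this simulation does not cover. R 4.3.3 and Python 3.11.15 were used. The counting is not stated to use strand.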

Additional observations from a re-analysis of the deposited data

Results flagged for a closer look

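In 42 of 83 groups of 8 values, 1 tumour lay far from the other 7. No chance rate is given, because many of the values lie at the floor. There, 1 count was enough to set a tumour apart, as for Krtap22-2 in Ecad female 2. Members also share tumours, so these are few independent events.

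ΔEcad female 2 stood apart from the other ΔEcad females for the summed Krtap level (635.3 TPM), for the high glycine-tyrosine sum (285.5 TPM) and the ultra-high sulphur sum (118.7 TPM), and for Krtap22-2 (26.72 TPM), Krtap19-5 (25.73 TPM), Krtap6-5 (14.44 TPM), Krtap1-5 (29.06 TPM), Krtap3-3 (19.39 TPM), Krtap17-1 (19.6 TPM), Krtap4-7 (20.78 TPM), Krtap4-1 (18.26 TPM) and Krtap4-16 (14.29 TPM).

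Ecad male 6 stood apart from the other Ecad males for the summed Krtap level (149.4 TPM), for the sums of the high glycine-tyrosine (69.99 TPM), high sulphur (54.35 TPM) and ultra-high sulphur genes (18.97 TPM), and for Krtap7-1 (25.96 TPM), Krtap8-1 (13.01 TPM), Krtap22-2 (8.79 TPM), Krtap11-1 (7.30 TPM), Krtap1-5 (3.70 TPM), Krtap3-3 (2.56 TPM), Krtap17-1 (6.98 TPM), Krtap4-7 (2.44 TPM) and Krtap4-1 (2.28 TPM). Krtap3-2 was instead far from the rest in Ecad male 1 (13.6 TPM).

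Among ΔEcad males, male 1 stood apart for Krtap22-2 (29.96 TPM), Krtap6-5 (5.79 TPM) and Krtap3-2 (6.73 TPM), and male 3 for the ultra-high sulphur sum (12.48 TPM), Krtap4-1 (1.88 TPM), Krtap4-16 (1.39 TPM) and Cdh1 (65.22 TPM).

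Among Ecad females, where most values were 0, female 5 stood apart for the high glycine-tyrosine sum (1.72 TPM) and Krtap7-1 (1.11 TPM), female 3 for the high sulphur sum (2.53 TPM), Krtap3-2 (1.28 TPM), Krtap3-3 (1.22 TPM) and Krtap4-16 (0.05 TPM), female 1 for Krtap8-1 (0.26 TPM) and Krtap17-1 (0.13 TPM), and female 2 for Krtap22-2 (0.34 TPM, from 1 count).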

How the results depend on the processing

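Members called between ΔEcad and Ecad females numbered 11, and 40 without a filter, 42 by DESeq2, 0 with the tumour number as a replicate block, 0 with the epidermis score as a covariate, 0 by limma voom, 0 by limma on log2(TPM + 1), 0 without ΔEcad male 2 and ΔEcad female 1 (added after seeing the data), and 0 to 20 with each tumour left out. The tumour numbers did not pair the tumours (mean correlation of same-numbered deviations 8.65e-05, from −0.547 to 0.425, and 1 tumour correlated best with its own number). Between the sexes in Ecad tumours DESeq2 called 16 members. For the interaction, RLE factors gave 1 call, library size alone 9, no filter 2, DESeq2 20, and leaving out each tumour 0 to 12. Calls over all genes are given above for DESeq2, limma and the covariate only. The other counts of members called are therefore not results about the Krtap genes alone. In males, the difference turned negative by limma voom for Krtap22-2 (−0.73), Krtap21-1 (−0.12) and Krtap6-5 (−0.58), and without ΔEcad male 1 for Krtap22-2 and Krtap6-5, whose values with each tumour left out ran from −0.65 to 3.18 and from −0.050 to 1.74. The median high glycine-tyrosine share was 35.3% of summed counts, against 46.6 to 48.8% of TPM with each tumour left out. With classes set by composition, at 30% or 35% glycine plus tyrosine, the share of TPM fell in each of the 14 tumours. At 35% it ran from 18.2% in Ecad male 1 to 65.1% in ΔEcad male 1. Krtap7-1, with 29.9% glycine plus tyrosine, was a high sulphur gene by both thresholds. With 100 TPM as the minimum, 6 tumours held shaft transcripts. The causes were not tested. With at least 10 counts required in 16 tumours no member was tested, nor with only the tumours compared for females and for Ecad tumours. The filter on counts limits the tested set, since 17 of the 58 members passed it, and 10 tumours had no Krtap count. The part of depth in this was not tested.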
